A study of Homo sapiens with 44 samples.

Results

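RelA knockdown in MDA-MB-231 cells was followed in 4 RNA sequencing libraries of the 44 samples in the series, chosen by their labels alone. MDA-MB-231 is a human triple-negative breast cancer line of mesenchymal character. In 2 libraries the cells had received an siRNA against RelA (siRelA), in 2 libraries of the same experiment an siRNA against RelB (siRelB), used here as a second knockdown, and in 2 a control siRNA, which serves both knockdowns. All cells had received 20 nM of siRNA and were collected 48 h later, and the groups are described as biological duplicates. Neither the sequences of the siRNAs nor whether each was a single molecule or a pool is known here, and all siRelA values come from the same reagent. With 2 libraries a side, the p-values measure only the spread between these samples. The question addressed is which transcripts depend on RelA, beyond the familiar NF-kB targets.

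RELA encodes p65, the transcription-activating subunit of the canonical NF-kB dimer. In resting cells p65 is held in the cytoplasm by IkB proteins, and it enters the nucleus when the IkB kinase complex marks those proteins for destruction. There it binds short kB motifs and switches on cytokines, survival factors and its own inhibitors. Many basal breast cancer lines keep some of this activity without a stimulus. An siRNA directs Argonaute to a matching mRNA, and, like a microRNA, it can also lower mRNAs whose 3′ UTR pairs with only a few bases near its 5′ end.

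Reads counted in genes numbered 24431753 and 21469124 for siRelA, 18599848 and 19734827 for siRelB, and 24023494 and 23191375 for control. Values below are CPM, library-scaled read counts (TMM), which compare libraries and not genes of different length. Changes are fitted log2 differences, siRelA minus control, ± SE, with edgeR's quasi-likelihood test adjusted by Benjamini-Hochberg over 15930 tested genes. A gene is said to have risen or fallen where its adjusted p was under 0.05. Bulk RNA cannot tell fewer cells of a kind from less RNA per cell. VIM, a mesenchymal filament gene, stood at 1114 and 1138 CPM under siRelA and 1159 and 986 CPM in control, while ESR1, the oestrogen receptor gene, had 7 and 2 reads under siRelA and 1 and 0 in control.

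RELA stood at 10.7 and 12.5 CPM in the siRelA libraries, against 154 and 150 CPM in the control libraries. It fell 13.1-fold (log2 change -3.71 ± 0.11, edgeR adjusted p = 1.4e-12). Both siRelA values lay far below both controls, as the labels require, and siRelB left RELA at a log2 change of 0.09 ± 0.09 (adjusted p = 0.55). Of the other subunit genes, RELB stood at 15.3 and 13.4 CPM under siRelA against 39.8 and 40.4 CPM in control and fell (-1.48 ± 0.14). NFKB2, which encodes the p100 precursor of the RelB partner p52, also fell, with 69.3 and 73.0 CPM under siRelA against 120 and 102 CPM in control (-0.65 ± 0.10). REL, the gene of a further activating subunit, did not pass the test (-0.04 ± 0.26). CHUK, an IkB kinase gene (-0.53 ± 0.11), and TRAF1, an adaptor gene (-0.90 ± 0.12), fell as well.

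Many of the transcripts that fell furthest under siRelA held the same short sequence. All 7-base words were ranked by the mean log2 change of the genes whose longest annotated 3′ UTR holds them, over 16177 words held by at least 100 genes each. GCCTAGT had the lowest mean, -0.23 over 852 genes, and the next word, CGAGTGA, had -0.10. The word was chosen by these values, so what follows describes it and is not a test of it. Other low words, such as AACGTAA (-0.10 over 416 genes), were not followed. Genes said below to lack the word may therefore hold others. Stretches of 29 bases around the word are shown for RELA itself and for genes named below, with the word in capitals (5′ to 3′ on the transcript strand, GRCh38, GENCODE transcripts). RELA holds it once, at chr11:65654512-65654540 on the minus strand. LDHA holds it at chr11:18407619-18407647 (plus), MSN at chrX:65741182-65741210 (plus) and GNA12 at chr7:2729773-2729801 (minus). MCL1 holds it at chr1:150576768-150576796 and chr1:150575987-150576015 (minus), TMX3 at chr18:68676133-68676161 and chr18:68675105-68675133 (minus), and CDK6 at chr7:92614969-92614997 and chr7:92609823-92609851 (minus). The letters on either side of the word differ from gene to gene.
RELA: ggctataactcGCCTAGTgacaggggccc
LDHA: tcactgaacatGCCTAGTccaacattttt
MSN: tggggattctgGCCTAGTcccttccacac
GNA12: tgagaaatcctGCCTAGTgtgttttggga
MCL1 site 1: ttactttattaGCCTAGTttatcaccaat
MCL1 site 2: cacaggtctaaGCCTAGTatgtcaataaa
TMX3 site 1: tagccagaataGCCTAGTattttatttct
TMX3 site 2: tttgaaactcaGCCTAGTaaggaagtgaa
CDK6 site 1: ccaaggaaaccGCCTAGTttactgttttg
CDK6 site 2: aagtaaagaaaGCCTAGTcattcattcag

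Of the 852 holders of the word, 30.6% fell and 7.63% rose, with a median log2 change of -0.17. Of the 11926 genes without it, 10.8% fell and 10.8% rose, with a median of 0.02. The median was -0.16 for 798 genes with 1 copy and -0.45 for 54 genes with 2 or more copies, of which 46.3% fell. Of genes with only the last 6 bases of the word 13.6% fell, of those with these 6 bases followed by A 16.9% fell, and of those with neither 9.81% fell. The holders had longer 3′ UTRs (median 3682 against 1761 bases), and the part of length in these shares was not tested. By length of the UTR, 27.0% of holders fell up to 1000 bases, 42.9% from 1000 to 2000, 33.2% from 2000 to 4000 and 25.3% above 4000, against between 9.42% and 11.7% of the others in the same 4 ranges. The larger the fall, the more often the word was present: it was held by 16.9% of genes that fell, 30.8% of those that fell at least 1.5-fold and 44.4% of those that fell at least 2-fold (76 of 171), against 6.67% of all genes with a 3′ UTR. Of the 240 genes that rose at least 2-fold, 2 held it. Over all tested genes, 1.24% fell and 1.69% rose at least 2-fold. Over the 14 other fits and library sets tried, the holders' median ran between -0.19 and -0.13. Under siRelB the holders had a median of -0.08 and the others 0.01 against the shared controls. Whether the siRNA acts on these mRNAs directly was not tested, so the number of fallen members that hold the word stands beside each list's count of falls below wherever it was above 0.

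**Figure D1:**
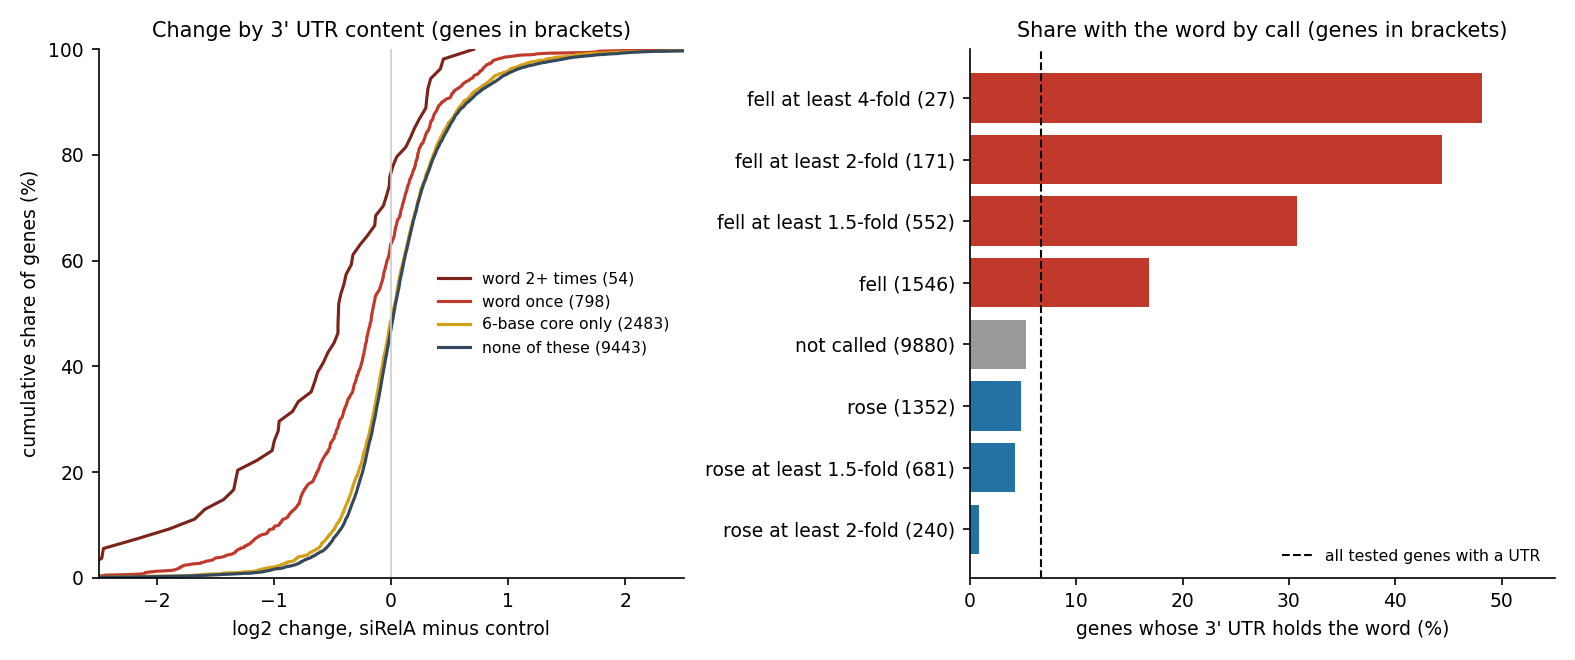
Left, cumulative share of genes (%) against the log2 change (siRelA minus control) for 3′ UTRs that hold the word 2 or more times, once, only its last 6 bases, or none of these. Right, share of genes (%) whose 3′ UTR holds the word by call and size of change, with a dashed line at 6.67% for all genes; the curves of word holders lie to the left of the others, and the share is 44.4% among genes that fell at least 2-fold.

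The best known NF-kB targets formed the list with the largest share of falls. Over all genes, 10.2% fell and 8.82% rose, and of the 27 targets tested, 19 fell and 0 rose (median -0.77; 3 of the fallen hold the word); at an unadjusted p under 0.05 edgeR had 1 rise, and DESeq2 called 0. BIRC3, which encodes the survival factor cIAP2, stood at 9.96 and 8.64 CPM under siRelA against 47.1 and 62.2 CPM in control (-2.55 ± 0.15, edgeR adjusted p = 5.8e-09). NFKBIA, the gene of the inhibitor IkBα, stood at 31.7 and 32.2 CPM under siRelA against 69.9 and 78.0 CPM in control (-1.21 ± 0.10). In both genes the siRelA values lay well below the controls. The cytokine genes CSF2 (-2.40 ± 0.35), CXCL8 (-2.37 ± 0.28) and IL11 (-1.61 ± 0.15) fell as well, and CXCL8 and IL11 rose under siRelB, as did 7.45% of all genes. Between the knockdowns, 17 of the 27 targets were lower under siRelA than under siRelB and 1 was higher. Over all genes, 14% were lower and 16% higher. Against control, 7 of the 27 rose and 5 fell under siRelB, against 7.45% and 10.8% of all genes.

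The kB motif was looked for on both strands in RefSeq promoters (GRCh38.p14, 250 bases before to 50 after each gene's start). Of 17 fallen targets with a promoter in the table, 7 held it, against 6.67% of all 11248 tested genes with a promoter. The targets were listed as known NF-kB targets, and the share among those that did not fall was not counted. The sites of BIRC3 (chr11:102317275-102317304 and chr11:102317339-102317368, plus strand) and NFKBIA (chr14:35404811-35404840, minus strand) are shown as examples, with the motif in capitals. Of all genes that fell at least 1.5-fold, 6.37% held the motif (7.02% of those without the 3′ UTR word and 4.29% of those with it), and of those that rose at least 1.5-fold, 7.96% did. A match is letters only and shows no binding.
BIRC3 site 1: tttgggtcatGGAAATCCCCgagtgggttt
BIRC3 site 2: tattaccgctGGAGTTCCCCtaagtcctaa
NFKBIA: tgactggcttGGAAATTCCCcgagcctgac

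Over all genes, 1405 rose and 1626 fell under siRelA (19% of 15930 called), of which 729 (4.58%) rose and 612 (3.84%) fell at least 1.5-fold. Protein-coding genes made up 1353 of the rises and 1549 of the falls. The list counts below are to be read beside 8.82% risen and 10.2% fallen over all genes. Among abundant transcripts falls outnumbered rises: at 100 CPM or more, 22.1% fell and 9.36% rose, whereas between 1 and 10 CPM 2.78% fell and 7.59% rose. The balance turned with the scaling, since upper-quartile scaling gave 1677 rises and 1389 falls. The number of calls leaned on single libraries: it was 1624 without control 1, 1786 without control 2, 2063 without siRelA 1 and 2790 without siRelA 2. Genes named below as risen or fallen were also called in those of 14 other fits and library sets that tested them. Lost calls are given beside the gene concerned.

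**Figure D2:**
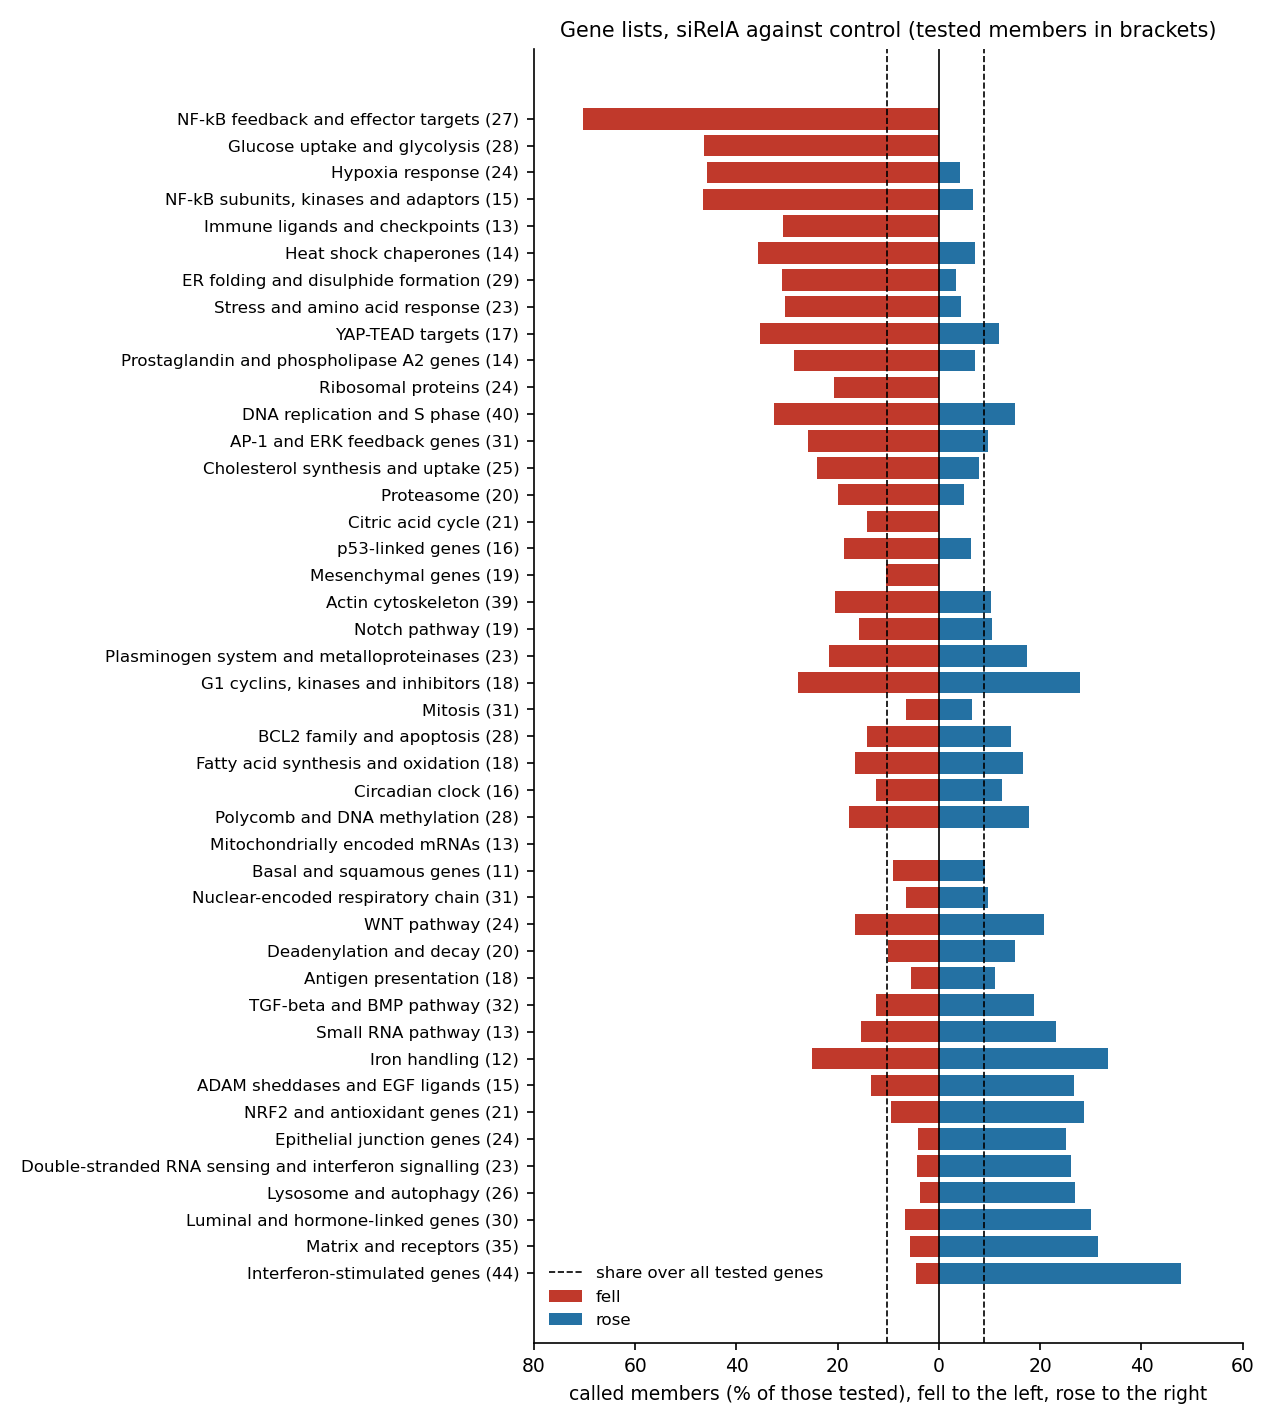
Share of tested members (%) that fell (left, red) or rose (right, blue) under siRelA in each gene list, number tested in brackets; dashed lines mark the shares over all genes, 10.2% and 8.82%. NF-kB targets, glycolysis and hypoxia genes lie at the falling end, and interferon-stimulated genes, at 47.7% risen, at the rising end.

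Among the metabolic lists, glycolysis had the largest share of falls. Of 28 genes of glucose uptake and glycolysis, 13 fell and 0 rose (median -0.23; 2 of the fallen hold the word), and 7 fell when control 1 was left out. Neither edgeR at an unadjusted p under 0.05 nor DESeq2 gave a rise in this list. SLC2A3, the high-affinity glucose transporter GLUT3, stood at 19.1 and 16.1 CPM under siRelA against 86.6 and 87.9 CPM in control (-2.31 ± 0.12, edgeR adjusted p = 9.0e-10). LDHA, which turns pyruvate into lactate and holds the word, stood at 506 and 474 CPM under siRelA against 2082 and 1854 CPM in control (-2.0 ± 0.08, edgeR adjusted p = 5.1e-11). Groups did not overlap in either gene, as held for 58.9% of all genes tested. The hexokinases HK1 (157 and 149 CPM under siRelA, 342 and 331 CPM in control) and HK2 (65.5 and 65.2 CPM under siRelA, 133 and 138 CPM in control) catalyse the entry step, and both fell. PFKFB3, an activator of phosphofructokinase (-1.13 ± 0.10), PDK1, a pyruvate dehydrogenase kinase gene (-0.78 ± 0.15), and PGAM1 (-0.54 ± 0.07) fell as well. The pathway did not fall as a whole: GAPDH (-0.06 ± 0.08), PKM (0.05 ± 0.07) and the main transporter gene SLC2A1 (0.12 ± 0.07) did not pass the test. SLC2A3 and PDK1 also fell under siRelB, while LDHA, HK1 and PGAM1 were not called there. Of the 28 genes, 6 fell and 0 rose under siRelB (median -0.14), against 10.8% and 7.45% of all genes. Of 31 respiratory chain genes 3 rose and 2 fell (1 rise and 1 fall without control 1), of 21 citric acid cycle genes 3 fell (5 with DESeq2 or robust dispersion and 1 without control 1), and the 13 mitochondrially encoded mRNAs had a median log2 change of 0.005.

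Hypoxia-response genes fell alongside. Of 24, 11 fell and 1 rose (median -0.39; 2 of the fallen hold the word). HIF1A, the oxygen-regulated transcription factor, stood at 215 and 193 CPM under siRelA against 496 and 521 CPM in control (-1.32 ± 0.09, edgeR adjusted p = 3.4e-08) and holds the word once. HIF1AN, which encodes the HIF-inhibiting hydroxylase FIH, holds it 3 times and fell too (-0.54 ± 0.10). The HIF targets ADM, a vasodilator peptide gene, and BNIP3, a mitophagy gene, lack the word. ADM stood at 9.47 and 14.9 CPM under siRelA against 34.9 and 35.8 CPM in control, and BNIP3 at 120 and 123 CPM under siRelA against 216 and 192 CPM in control. Their siRelA values lay below both controls, and 58.9% of all genes tested had no overlap between groups in either direction. VEGFA (-0.44 ± 0.09) and NDRG1 (-0.48 ± 0.09) fell less, and both were higher under siRelA than under siRelB. Under siRelB, HIF1A fell as well (-0.88 ± 0.09). Of the 24 genes, 7 fell and 0 rose under siRelB (median -0.25), against 10.8% and 7.45% of all genes. Between the knockdowns, 6 of the 24 were higher and 8 lower under siRelA. ANKRD37 passed the test here (-1.05 ± 0.36, edgeR adjusted p = 0.049) but not once any 1 of the siRelA or control libraries was left out, nor with upper-quartile scaling (0.057), the replicate block (0.054) or DESeq2 (0.059), all adjusted p. CA9, a sensitive hypoxia marker, was near the detection limit (0.445 and 0 CPM under siRelA, 0.733 and 0.883 CPM in control) and was not called.

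**Figure D3:**
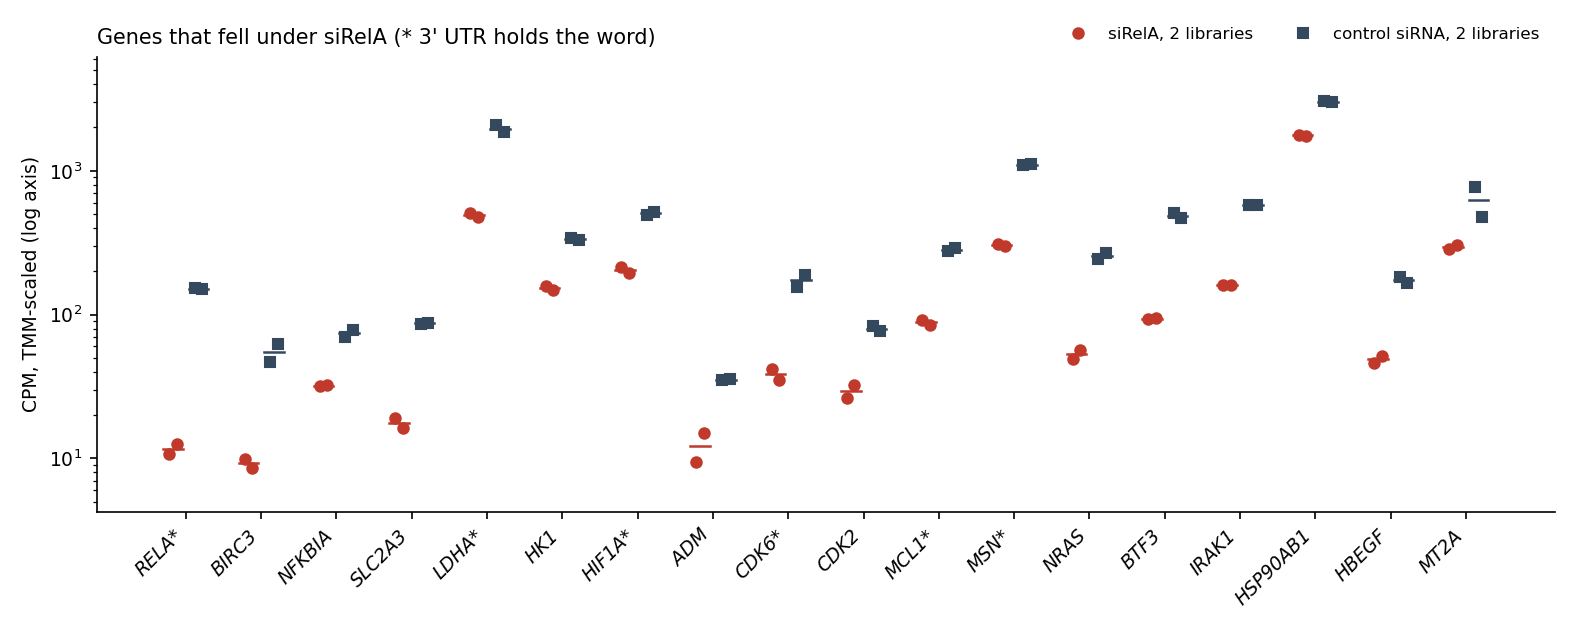
CPM on a log axis in each library for 18 genes that fell, chosen for display after their values were seen, siRelA (red circles) left of control (dark squares), with bars at group means and an asterisk where the 3′ UTR holds the word. Every siRelA value lies below both control values of its gene; RELA shows the widest gap, 13.1-fold.

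Deep falls were also found in transcripts of at least 30 CPM with and without the word, of which those given next were chosen after their values were seen. GNA12, a G protein alpha subunit gene, stood at 39.5 and 36.0 CPM under siRelA against 203 and 213 CPM in control (-2.46 ± 0.09). VAMP7, a vesicle fusion gene (-2.47 ± 0.12), ALDH9A1, an aldehyde dehydrogenase gene (-2.46 ± 0.10), and TMX3, a disulphide isomerase gene of the endoplasmic reticulum (-2.62 ± 0.13), each hold the word 2 times and fell. NRAS, the RAS family oncogene, lacks the word and stood at 48.9 and 57.2 CPM under siRelA against 244 and 268 CPM in control (-2.27 ± 0.10, edgeR adjusted p = 9.6e-11). IRAK1, the kinase that links Toll-like and interleukin-1 receptors to NF-kB, also lacks it and stood at 161 and 161 CPM under siRelA against 580 and 580 CPM in control (-1.85 ± 0.08). MBD2, a reader of methylated DNA (-1.76 ± 0.12), and CLDN12, a claudin gene (-1.73 ± 0.12), are further falls without the word. BTF3 fell as well (-2.38 ± 0.09), but it has processed pseudogenes that can share its reads, so its level is uncertain. All of these genes were lower under siRelA than under siRelB.

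MSN and YWHAZ were among the 5 genes with the largest fall in CPM, with LDHA, HSP90AB1 and TGM2. MSN encodes moesin, which ties actin to the membrane, and stood at 311 and 301 CPM under siRelA against 1090 and 1114 CPM in control (-1.85 ± 0.07). YWHAZ, a 14-3-3 adaptor gene, stood at 1036 and 1010 CPM under siRelA against 2498 and 2493 CPM in control (-1.29 ± 0.07). Both hold the word. TGM2, a protein crosslinker and NF-kB target gene, lacks it and stood at 866 and 790 CPM under siRelA against 1526 and 1529 CPM in control (-0.88 ± 0.07). HSP90AB1, a cytosolic chaperone gene with many pseudogenes, stood at 1776 and 1755 CPM under siRelA against 3061 and 2989 CPM in control (-0.78 ± 0.07), whereas its paralogue HSP90AA1 was not called (-0.07 ± 0.07).

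Among G1 regulators, falls and rises were equal in number, 5 and 5 of 18 (1 of the fallen holds the word). Each was 27.8%, against 10.2% fallen and 8.82% risen over all genes. CDK6, the kinase that starts the inactivation of RB with D cyclins, stood at 41.8 and 35.2 CPM under siRelA against 157 and 190 CPM in control and holds the word 2 times (-2.17 ± 0.12). CDK2, which lacks the word, stood at 26.1 and 32.6 CPM under siRelA against 83.1 and 76.3 CPM in control (-1.44 ± 0.12). CCNE2, a cyclin partner of CDK2, moved the other way, to 28.0 and 27.2 CPM under siRelA against 9.14 and 10.4 CPM in control (2.83-fold higher). Its siRelA values lay well above both controls, and it also rose under siRelB (1.36 ± 0.15). CCND1 (-0.34 ± 0.08) and MYC (-0.46 ± 0.09) fell by less. The number of G1 genes that rose was 1 without control 1 and 3 without control 2 or without siRelA 1.

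DNA replication genes fell more often than they rose (32.5% against 15.0%). Falls also outnumbered rises over all genes (10.2% against 8.82%), and more so at 100 CPM or more (22.1% against 9.36%). Of 40 DNA replication genes, 13 fell and 6 rose (median -0.21; 1 of the fallen holds the word), but the falls were 5 without control 1, 8 without control 2 and 7 without siRelA 1, and the rises 3 without each of these in turn. E2F7 (-0.81 ± 0.10), MCM2, a helicase subunit gene (-0.52 ± 0.09), and FEN1, a flap nuclease gene (-0.48 ± 0.09), fell. E2F2 (1.17 ± 0.18), RRM2, which supplies deoxynucleotides (0.76 ± 0.10), and RPA1, which coats single-stranded DNA (0.70 ± 0.08), rose. Of 31 mitotic genes, 2 rose and 2 fell (median 0.01), and CCNB1 was not called, at 269 and 255 CPM under siRelA and 272 and 261 CPM in control. The mitotic rises numbered 6 without siRelA 2 and 4 with upper-quartile scaling or robust dispersion, and the falls 5 with DESeq2.

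Of 28 genes of the BCL2 family and apoptosis, 4 rose and 4 fell (1 of the fallen holds the word). MCL1, an anti-apoptotic BCL2 relative that holds the word at 2 places, stood at 91.6 and 84.8 CPM under siRelA against 276 and 289 CPM in control (-1.68 ± 0.08), and rose under siRelB (0.51 ± 0.08). BMF, a pro-apoptotic member, stood at 15.5 and 13.2 CPM under siRelA against 2.72 and 4.55 CPM in control (1.98 ± 0.26). PMAIP1, the gene of NOXA, fell (-0.87 ± 0.11), and XIAP, a caspase inhibitor gene, rose (0.61 ± 0.11). The rises of this list numbered 2 without control 1, without control 2 or without a filter on low counts, and the falls 2 without control 1. MDM2, the p53 ubiquitin ligase gene, is not in the list, holds the word and fell (-1.33 ± 0.14).

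Stress and folding genes fell in part. The shares of falls were 30.4% for the stress list, 31.0% for the folding list and 20.8% for ribosomal proteins. Of all genes, 10.2% fell and 8.82% rose, and at 100 CPM or more 22.1% fell and 9.36% rose. Of 23 genes of the stress and amino acid response, 7 fell and 1 rose (median -0.24), and 4 fell without control 1. ATF4, the transcription factor of this response, stood at 92.5 and 113 CPM under siRelA against 143 and 143 CPM in control (-0.48 ± 0.10), and its targets MTHFD2 (-0.89 ± 0.11), PSAT1 (-0.41 ± 0.09) and SLC1A5 (-0.48 ± 0.08) fell. SLC7A11, the cystine transporter gene, was the 1 that rose (0.49 ± 0.10), a call lost without control 1 (edgeR adjusted p = 0.097). Of 29 endoplasmic reticulum folding genes, 9 fell and 1 rose (median -0.12; 2 of the fallen hold the word), and 5 fell without control 1. TMX3, DNAJB9 (-1.20 ± 0.16) and the stress sensor ERN1 (-1.0 ± 0.16) fell, whereas HSPA5, the main chaperone of the compartment, was not called (0.05 ± 0.07). Of 24 ribosomal protein genes, 5 fell by small amounts (median -0.17), a count that was 0 without control 1, 1 without siRelA 1, 10 without siRelA 2 and 2 with upper-quartile scaling.

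Of 17 YAP-TEAD targets, 6 fell and 2 rose (median -0.13; 1 of the fallen holds the word), and 1 rose without any 1 of the siRelA or control libraries. CCN1, a matricellular factor gene, stood at 472 and 564 CPM under siRelA against 1030 and 1055 CPM in control (-1.01 ± 0.09, edgeR adjusted p = 4.9e-07), and fell under siRelB too. CCN2, its relative, stood at 125 and 149 CPM under siRelA against 237 and 226 CPM in control (-0.75 ± 0.09), but rose under siRelB (0.38 ± 0.09). ANKRD1 fell (-0.85 ± 0.09). Of 10 plasminogen system genes, 4 fell and 1 rose, among the falls PLAUR, the urokinase receptor gene (-0.50 ± 0.09). With the metalloproteinases they form a list of 23, of which 5 fell and 4 rose (3 and 2 without control 2, and 2 rises without control 1). Urokinase itself, PLAU, is counted above with the NF-kB targets, holds the word and stood at 123 and 153 CPM under siRelA against 780 and 730 CPM in control (-2.45 ± 0.10). Of 13 immune ligands, 4 fell, 2 without control 2. CD274, the gene of PD-L1, stood at 21.2 and 23.6 CPM under siRelA against 46.4 and 45.3 CPM in control (-1.03 ± 0.12), and PVR fell (-0.61 ± 0.08).

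Of 7 EGF receptor ligand genes, 2 fell, and of 8 sheddase genes, 4 rose. The shares over all genes were 10.2% fallen and 8.82% risen. The other 5 ligands and 4 sheddases did not pass the test. Under siRelB, against the same controls, 2 of the 7 ligands fell, and of the 8 sheddases 4 rose and 1 fell. Of all genes, 10.8% fell and 7.45% rose under siRelB. Among the ligands, HBEGF stood at 46.1 and 51.6 CPM under siRelA against 182 and 166 CPM in control (-1.83 ± 0.10), and AREG at 52.4 and 63.0 CPM under siRelA against 113 and 108 CPM in control (-0.94 ± 0.10). ADAM17, the protease that releases both, stood at 63.1 and 57.0 CPM under siRelA against 24.9 and 31.5 CPM in control (1.09 ± 0.12). ADAM10 rose as well (0.45 ± 0.08), although it holds the word 2 times. None of the 4 genes overlapped between groups, as held for 58.9% of all genes tested. The rises numbered 2 without control 1 or without siRelA 1.

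Of 7 metallothionein and zinc genes, 4 fell and 1 rose, against 10.2% and 8.82% of all genes. Metallothioneins bind zinc and copper. MT2A stood at 286 and 305 CPM under siRelA against 769 and 480 CPM in control (-1.08 ± 0.15), and MT1E at 69.3 and 74.6 CPM under siRelA against 153 and 118 CPM in control (-0.92 ± 0.14). The controls differed from each other more than the siRelA libraries did, and members of this family are near-identical, so reads may be split between them. The falls of the list numbered 2 without control 2 and 2 with upper-quartile scaling. Its rise was lost with DESeq2 size factors, with the replicate block and without control 1, siRelA 1 or siRelB 1.

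Interferon-stimulated genes made up the list with the largest share of rises. Of 44, 21 rose and 2 fell (median 0.47, against 0.02 over all genes; 1 of the fallen holds the word), and 11 rose without control 1 or without control 2. DDX60 stood at 50.7 and 59.2 CPM under siRelA against 19.4 and 23.9 CPM in control (1.34 ± 0.13, edgeR adjusted p = 2.4e-06). IFIT3 stood at 179 and 179 CPM under siRelA against 82.2 and 88.5 CPM in control (1.07 ± 0.09). HERC6 (1.04 ± 0.12), IFIT2 (0.76 ± 0.11) and IFIT1 (0.72 ± 0.13) rose too; the IFIT genes encode proteins that bind foreign RNA. Under siRelB none of these 5 genes rose and IFIT2 fell (-0.46 ± 0.11), and all 5 were higher under siRelA than under siRelB. MX2 had the largest change of the list (1.85 ± 0.46, edgeR adjusted p = 0.0091), at 2.71 and 2.5 CPM under siRelA against 0.819 and 0.618 CPM in control, and its call was lost without control 2 (edgeR adjusted p = 0.089). ISG15, which encodes a ubiquitin-like protein, stood at 159 and 202 CPM under siRelA against 132 and 138 CPM in control (0.42 ± 0.12, edgeR adjusted p = 0.026), and its call was lost without control 1 (0.15), without control 2 (0.086), without siRelA 2 (0.24) and with robust dispersion (0.052), all as edgeR adjusted p. GBP1, which encodes a guanylate-binding protein, went against the list with 58.3 and 59.6 CPM under siRelA and 95.3 and 103 CPM in control (-0.75 ± 0.09).

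Among 23 genes that sense double-stranded RNA or carry the interferon signal, 6 rose and 1 fell (median 0.14). Of all genes, 8.82% rose and 10.2% fell. IFIH1, which encodes the long double-stranded RNA sensor MDA5, stood at 30.0 and 26.6 CPM under siRelA against 9.35 and 13.2 CPM in control (1.33 ± 0.18). ADAR, an RNA editing enzyme gene, rose (0.48 ± 0.08). RIGI (-0.10 ± 0.10) did not pass the test. SOCS3, a feedback inhibitor gene of cytokine receptors, fell (-0.65 ± 0.11). IFNB1 and IFNL1 had 0 reads in all 6 libraries.

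**Figure D4:**
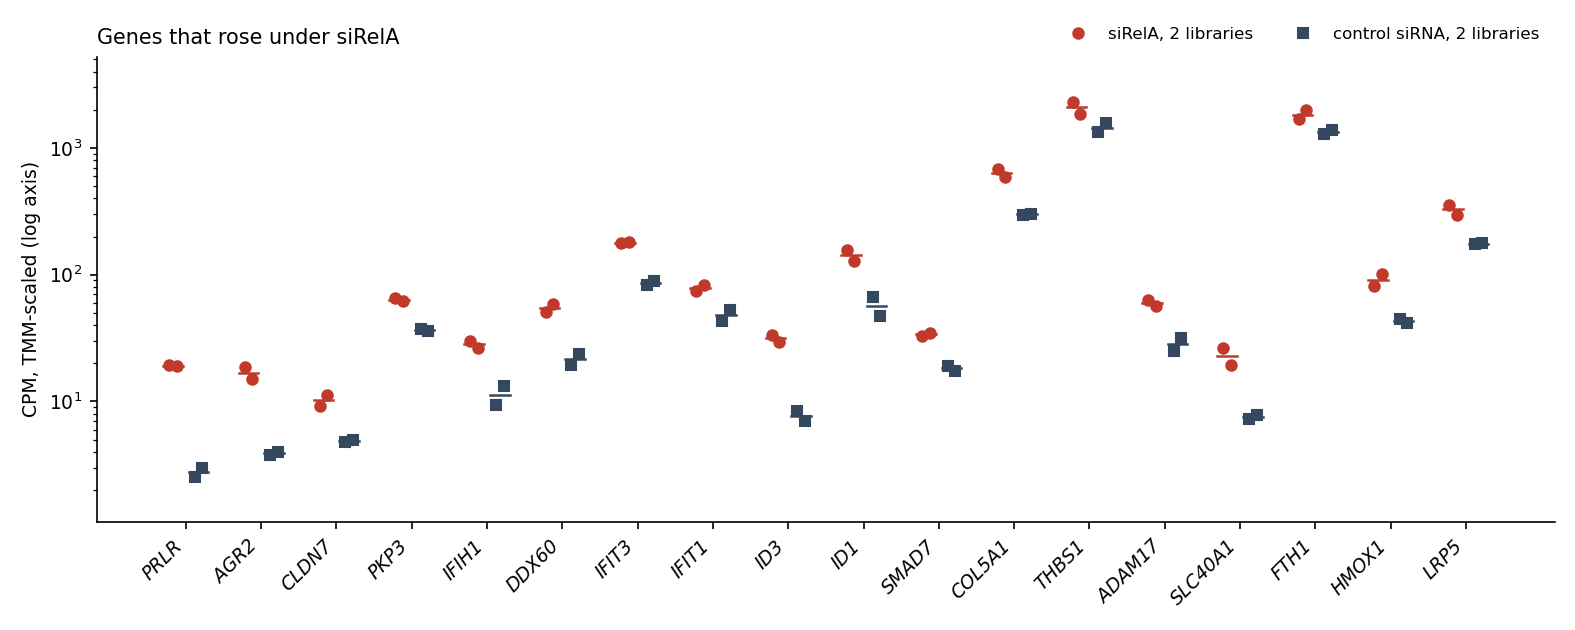
CPM on a log axis in each library for 18 genes that rose, chosen for display after their values were seen, and ISG15 left out because its call changed with the settings, siRelA (red circles) left of control (dark squares), with bars at group means. Every siRelA value lies above both control values of its gene, including PRLR, at 19.2 and 18.9 CPM under siRelA against 2.54 and 3.00 CPM in control.

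Luminal and hormone-linked genes rose more often than they fell. Of 30 tested, 9 rose and 2 fell (median 0.18), and 13 were higher and 2 lower under siRelA than under siRelB. The median was 0.46 without control 1 and 0.05 without siRelA 1, and the falls numbered 0 without control 2 and 1 without siRelA 2. Under siRelB, against the same controls, 2 of the 30 rose and 8 fell (median -0.16), against 7.45% and 10.8% of all genes. PRLR, the prolactin receptor gene, rose furthest in this list under siRelA (2.78 ± 0.20, edgeR adjusted p = 7.8e-08). AGR2, a disulphide isomerase gene of secretory epithelia, stood at 18.5 and 14.9 CPM under siRelA against 3.79 and 4.02 CPM in control (2.10 ± 0.20). SPDEF, a luminal transcription factor gene, stood at 29.2 and 26.0 CPM under siRelA against 15.3 and 11.4 CPM in control (1.04 ± 0.17), and KRT19 at 385 and 375 CPM under siRelA against 301 and 256 CPM in control (0.45 ± 0.09). PGR, the progesterone receptor gene, had 20 and 7 reads under siRelA and 5 and 2 in control, too few to test. Epithelial junction genes had 6 rises and 1 fall of 24 (median 0.27), with 2 rises without control 1 or without siRelA 1 and 3 without control 2. PKP3, a desmosomal plakophilin gene (0.79 ± 0.12), and CLDN7 (1.07 ± 0.21) rose, and CLDN4 fell (-0.47 ± 0.09). CDH1, the E-cadherin gene, had 9 and 2 reads under siRelA and 0 and 7 in control. Of 19 mesenchymal genes, 2 fell, MSN, which holds the word, and ZEB1, a repressor of epithelial genes (-0.54 ± 0.10), and 0 rose by edgeR or DESeq2, with 2 rises at an unadjusted p under 0.05 in edgeR.

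Matrix genes rose more often than they fell. Of 35 matrix and receptor genes, 11 rose and 2 fell (median 0.10), and 7 rose without control 2; 19 were higher and 2 lower under siRelA than under siRelB. Under siRelB, against the same controls, 2 of the 35 rose and 11 fell (median -0.19), against 7.45% and 10.8% of all genes. COL5A1 stood at 682 and 590 CPM under siRelA against 296 and 301 CPM in control (1.09 ± 0.08, edgeR adjusted p = 1.1e-07). COL4A2, a basement membrane collagen gene, stood at 208 and 212 CPM under siRelA against 124 and 107 CPM in control (0.86 ± 0.09) and also rose under siRelB (0.80 ± 0.09). COL1A1 (0.93 ± 0.14), FBN1, the fibrillin gene (0.63 ± 0.13), and LAMA5, a laminin gene (0.61 ± 0.08), rose. THBS1, which encodes thrombospondin 1, stood at 2304 and 1862 CPM under siRelA against 1327 and 1560 CPM in control (0.53 ± 0.10), with the 2 siRelA libraries further apart than the controls. LAMB3 (-0.46 ± 0.07) and LOXL4 (-0.62 ± 0.09) fell. MMP14, a membrane metalloproteinase gene, rose (0.49 ± 0.07). PLEC (0.23 ± 0.07) and AHNAK (0.25 ± 0.08), which encode large cytoskeletal linkers, had among the largest rises in CPM through their high levels; neither was called without control 1 or without siRelA 1, nor PLEC without control 2, with DESeq2 size factors (edgeR adjusted p = 0.052) or with siRelA and control libraries alone (edgeR adjusted p = 0.054).

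**Figure D5:**
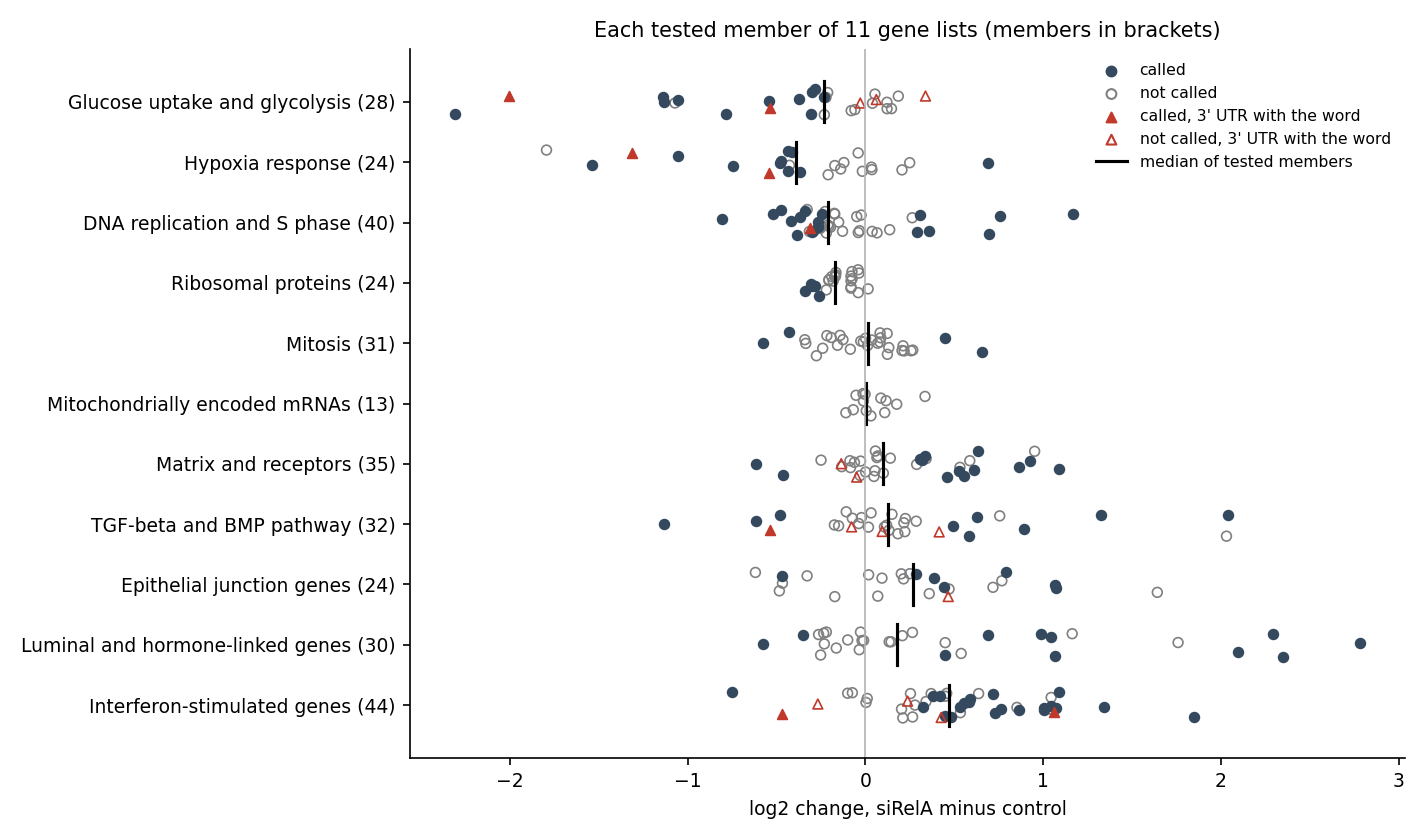
Fitted log2 change (siRelA minus control) of each tested member of 11 gene lists, filled where called and open where not, red triangles where the 3′ UTR holds the word, black bar at the list's median. Glycolysis and hypoxia members lie mainly to the left, interferon-stimulated genes mainly to the right with a median of 0.47, and mitotic and mitochondrially encoded mRNAs around 0.

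Of 32 genes of the TGF-beta and BMP pathway, 6 rose and 4 fell (1 of the fallen holds the word). These were 18.8% and 12.5%, against 8.82% and 10.2% of all genes. The list's median was 0.13, and -0.003 without siRelA 1. Among the 11 ligands 1 rose, BMP4, which stood at 291 and 277 CPM under siRelA against 194 and 174 CPM in control (0.63 ± 0.08), and NOG, the gene of the BMP trap noggin, at 33.4 and 34.8 CPM under siRelA against 74.8 and 74.8 CPM in control (-1.13 ± 0.11). The BMP response genes ID1 (157 and 128 CPM under siRelA, 66.6 and 47.2 CPM in control) and ID3 (33.4 and 29.7 CPM under siRelA, 8.36 and 6.97 CPM in control) rose, by 1.32 ± 0.13 and 2.04 ± 0.15. Both ID genes also rose under siRelB, by 0.99 ± 0.13 and 1.67 ± 0.15. SMAD7, the inhibitory SMAD gene, rose under siRelA (0.89 ± 0.13) and not under siRelB, and the difference between the knockdowns passed the test (1.18 ± 0.14). In the WNT pathway, 5 of 24 rose (20.8%) and 4 fell (16.7%). The receptor genes LRP5 (0.89 ± 0.09) and LGR4 (0.89 ± 0.11) rose. The antagonist gene DKK1 (-0.75 ± 0.11) and the receptor gene FZD1 (-0.74 ± 0.10) fell. The WNT rises numbered 2 without control 1 or without siRelA 1, and the falls 2 without control 2.

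Genes of iron and redox handling changed in both directions. SLC40A1, the iron exporter ferroportin, stood at 26.3 and 19.4 CPM under siRelA against 7.33 and 7.86 CPM in control (1.59 ± 0.18). FTH1, the ferritin heavy chain gene, stood at 1682 and 1977 CPM under siRelA against 1295 and 1374 CPM in control (0.46 ± 0.09), and has pseudogenes that can share its reads. The uptake genes TFRC (-0.39 ± 0.08) and SLC39A14 (-0.70 ± 0.09) fell, while the reductase gene CYBRD1 rose (0.94 ± 0.09). Of 12 iron genes, 4 rose and 3 fell, against 8.82% and 10.2% of all genes. HMOX1, which breaks down haem, stood at 80.7 and 102 CPM under siRelA against 44.4 and 41.5 CPM in control (1.09 ± 0.13). Its repressor gene BACH1 holds the word and fell (-0.71 ± 0.12). Of 21 NRF2 and antioxidant genes, 6 rose and 2 fell, BACH1 among them as the 1 that holds the word, and 3 rose without control 1 or without siRelA 1.

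Genes of the small RNA pathway itself were among those that changed. DROSHA, the nuclear microRNA-processing enzyme gene, holds the word and stood at 40.3 and 42.9 CPM under siRelA against 103 and 105 CPM in control (-1.32 ± 0.09, edgeR adjusted p = 4.8e-08). AGO4, an Argonaute gene, stood at 21 and 19.4 CPM under siRelA against 7.76 and 6.93 CPM in control (1.46 ± 0.16), and TNRC6B, an Argonaute partner in silencing, at 53.1 and 43.4 CPM under siRelA against 20.4 and 22.6 CPM in control (1.17 ± 0.14). Values of both knockdowns set side by side show that AGO4 rose under siRelB too (0.82 ± 0.17), while TNRC6B was not called there (-0.13 ± 0.14). Of 13 genes of this pathway, 3 rose and 2 fell, both that fell hold the word, and 1 fell without control 2 or without siRelA 2.

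Among abundant genes that rose, chosen after their values were seen, CARNMT1, a carnosine methyltransferase gene, stood at 55.7 and 44.6 CPM under siRelA against 10.3 and 13.5 CPM in control (2.08 ± 0.15). It rose under siRelB too (1.86 ± 0.15), and the knockdowns differed by 0.21 ± 0.14 (edgeR adjusted p = 0.27). CPEB2, a translation regulator gene, stood at 79.5 and 76.3 CPM under siRelA against 20.3 and 26.6 CPM in control (1.73 ± 0.14). ZFHX3, a zinc finger homeobox gene, stood at 59.3 and 52.5 CPM under siRelA against 15.6 and 19.6 CPM in control (1.66 ± 0.14), and was not called under siRelB (-0.08 ± 0.15). In each, both siRelA values exceeded both controls, which the choice of these genes required.

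The 10 protein-coding genes with the largest fitted rises were all close to silent in control cells, so read counts are given in place of folds. HEYL, a Notch target gene, had 27 and 15 reads under siRelA and 0 and 0 in control, at least 14.0-fold higher against a floor of 3 reads over both controls. MAP2K6, a p38 kinase kinase gene, had 73 and 29 reads under siRelA and 4 and 3 in control, and CREB3L3 45 and 25 under siRelA and 0 and 4 in control. TPRG1, VTN, SLC14A1, CAPN8, HR, UTS2B and TBC1D3E, which has near-identical copies, had 12 to 30 reads under siRelA and at most 3 in control. Each of the 10 lost its call without siRelA 1 or another single siRelA or control library. DESeq2 gave no adjusted p for any of the 10 and so called none of them. VTN and UTS2B also lost theirs without a filter on low counts, and UTS2B with robust dispersion, the replicate block or without either siRelB library.

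The 10 largest falls included better measured genes. PLA2G12A, a secreted phospholipase gene, had 44 and 61 reads under siRelA and 376 and 432 in control (-2.96 ± 0.22, edgeR adjusted p = 8.7e-08). FAT3, an atypical cadherin gene, had 15 and 33 reads under siRelA and 162 and 179 in control (-2.83 ± 0.34). Both lack the word, and neither was called under siRelB. SAA2, which has a near-identical neighbour, had 4 and 8 reads under siRelA and 57 and 46 in control. KRT34 (0 and 2 reads under siRelA, 14 and 15 in control) and DLG2 (4 and 5 reads under siRelA, 28 and 25 in control) rest on few reads. Neither was called without control 1, control 2 or siRelA 1, nor DLG2 without siRelA 2 or with the replicate block. DESeq2 gave neither gene an adjusted p and so called neither. The other 5 were RELA, TMX3, BIRC3, VAMP7 and GNA12. Of 1863 long non-coding RNA genes, 31 rose (1.66%) and 40 fell (2.15%), below the 8.82% and 10.2% of all genes. SOCS3-DT, a divergent transcript of SOCS3, had 0 and 1 reads under siRelA and 12 and 15 in control. Its call was lost without any 1 of these 4 libraries, and DESeq2 gave it no adjusted p.

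Of 12 haematopoietic markers 3 were tested, with a summed level of 22.2 and 22.4 CPM under siRelA and 14.4 and 14.7 CPM in control; CD8A rose (1.15 ± 0.33, not called without control 1, siRelA 1 or siRelA 2) and CD3E had 0 reads in every library. Of 8 fibroblast markers 4 were tested, with a summed level of 41.9 and 32.7 CPM under siRelA and 25.7 and 24.4 CPM in control; COL1A2 rose (0.75 ± 0.18, not called without control 2 or siRelA 1) and DCN had 0 reads in every library. Their part in the matrix rises was not tested. Of 7 endothelial markers 3 were tested, with a summed level of 66.7 and 85.4 CPM under siRelA and 82.1 and 73.4 CPM in control; 0 were called by edgeR or DESeq2 or had an unadjusted p under 0.05 in edgeR, and CDH5 had 0 reads in every library.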

How the data were processed

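RNA was sequenced in 2 siRelA, 2 siRelB and 2 control siRNA libraries. The authors deposited raw read counts per Ensembl gene (58735 genes). Per the submitters' processing notes, the tools named are HISAT2 2.0.5, featureCounts 1.5.0-p3 and DESeq2 1.20.0, with genome build hg19; whether counting used strand is not given in the sources used here. Gene symbols, types and 3′ UTRs came from GENCODE on GRCh38 by gene ID, and 15843 of 15930 tested genes had a symbol. edgeR 4.0.16 (R 4.3.3) filtered low counts (15930 genes kept), scaled by TMM and fitted all 6 libraries with 1 mean per group, leaving 3 residual degrees of freedom. No replicate block was used, since nothing ties libraries of the same number together. In simulated siRelA against control data over 15930 genes, 91% of 2-fold and 72% of 1.5-fold changes were called, with 16 of 14890 unchanged genes. The changes were placed only in genes above a set level in control, so these shares do not cover low-count genes. Replicates differed by far more than sampling noise (chi-square per gene 11.3 for siRelA and 8.71 for control), so none was counted as a duplicate. DESeq2 1.42.0, other scalings and filters, and leaving out each library were alternatives. The 7-base words were counted in each gene's longest 3′ UTR of at least 50 bases (12778 genes).

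Named were RELA and other subunits, the 10 largest rises and falls among called protein-coding genes whose groups do not overlap, the 5 largest in CPM each way, long non-coding RNAs, and called members of 50 gene lists (1039 of 1120 listed genes tested) with further members where needed to describe a step; a few members of these lists are counted but not reported here by name. The genes and lists were chosen with earlier results of these data known. From the second experiment of the series, 8 per-sample columns were not used, and the chromatin libraries were not analysed here.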

Additional observations from a re-analysis of the deposited data

How the results depend on the processing

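Some settings kept all siRelA and control libraries: DESeq2, other size factors, upper-quartile scaling, other filters, robust dispersion, a replicate block, and siRelA and control without siRelB. Among these, the number of genes called stayed within 1.5 times of 3031, between 2958 and 3257. Of the 3031 calls, 92.2% to 99.5% were shared, all in the same direction. With replicate number as a block, 2958 genes were called (1355 rose, 1603 fell), although libraries of the same number did not deviate together (correlations of deviations -0.01 for siRelA and control, -0.025 for siRelB and control and 0.048 for siRelA and siRelB), so the numbers were not taken as pairs. Leaving out 1 library at a time gave between 1624 and 3287 called genes, 646 to 1549 rises, 978 to 1738 falls and 469 to 818 rises of at least 1.5-fold. The lowest of each came without control 1 (52.5% of the 3031 calls shared, all in the same direction), where 1 control library is assumed to vary like the other groups. Without genes that hold the 3′ UTR word, a setting added after seeing the data, 2652 were called, of which 1308 rose and 1344 fell. For siRelA against siRelB, 3324 to 4837 genes were called over all settings, against 4768 as reported. None of the 154 named genes that were called changed direction in an alternative, while the sign of some that were not called turned (GAPDH -0.06, and 0.04 without control 1). Of the 154, 133 were called in every alternative in which they were tested.

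Each group had 2 libraries and 1 siRNA reagent, so effects of the reagent and of RelA loss cannot be told apart. Genes under 1 CPM are limited by depth: 0.82% of them rose and 0.312% fell.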

Other observations

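Polycomb and DNA methylation genes, of interest because the series also concerns EZH2, changed in both directions. Of 28, 5 rose and 5 fell (17.9% each, against 8.82% and 10.2% over all genes; median -0.01). EZH2 itself, the histone H3 lysine methyltransferase gene, stood at 107 and 116 CPM under siRelA and 112 and 107 CPM in control (0.03 ± 0.09, edgeR adjusted p = 0.87). JARID2, a cofactor of the complex, stood at 139 and 121 CPM under siRelA against 69.7 and 71.4 CPM in control (0.88 ± 0.10). EPOP, another cofactor gene (-1.14 ± 0.18), and RBBP4, a histone-binding subunit gene (-0.58 ± 0.09), fell. The list's rises numbered 1 without control 2 and 2 without control 1, siRelA 1 or siRelA 2, and its falls 2 without control 2 and 3 without control 1 or siRelA 2.

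Lipid and clock genes gave a few large single changes. ELOVL5, a fatty acid elongase gene that holds the 3′ UTR word, stood at 89.3 and 91.6 CPM under siRelA against 290 and 326 CPM in control (-1.77 ± 0.09). INSIG1, which restrains cholesterol synthesis, fell (-0.92 ± 0.12), and HMGCS1, an early enzyme gene of that synthesis, rose (0.87 ± 0.11). PLA2G15, a lysosomal phospholipase gene, holds the word and stood at 10.4 and 10.8 CPM under siRelA against 34.7 and 38.3 CPM in control (-1.78 ± 0.13). CLOCK, a core circadian transcription factor gene that holds the word 2 times, fell under siRelA (-0.84 ± 0.12) and rose under siRelB (0.75 ± 0.12). In the Notch pathway, RBPJ, the DNA-binding partner of Notch, stood at 117 and 119 CPM under siRelA against 191 and 206 CPM in control (-0.75 ± 0.09).

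Of 26 lysosome and autophagy genes, 7 were called higher and 1 lower (median 0.09), with 2 rises without control 2 and 4 without control 1, siRelA 1 or siRelA 2. NEU1, a lysosomal hydrolase gene, rose in every setting tried (0.55 ± 0.09). Of 39 actin cytoskeleton genes, 4 rose and 8 fell (1 of the fallen holds the word), and RHOB stood at 65.6 and 60.2 CPM under siRelA against 28.0 and 26.9 CPM in control (2.29-fold higher), fell under siRelB (-0.76 ± 0.12), and differed between the knockdowns by 1.95 ± 0.12 (edgeR adjusted p = 7.9e-09).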
